A study of Mus musculus with 4 samples.

Results

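The Toll-like receptors and the lipopolysaccharide co-receptors CD14 and MD-2 were described as 10 genes, Tlr1, Tlr2, Tlr3, Tlr4, Tlr5, Tlr7, Tlr9, Tlr13, Cd14 and Ly96, picked by symbol from the 53819 gene symbols of a deposited table of read counts. RNA was sequenced in bulk from samples labelled as primary eosinophils of the colon of wild-type C57Bl/6 mice. The treated mice received dextran sulfate sodium (DSS) at 3%, which damages the lining of the colon and brings on colitis, and the controls drank water. Each group had 2 libraries, and every title carries the tag D6, which the labels do not explain. Age, sex, the number of mice pooled per library, the way the eosinophils were isolated and their purity are not given in the sources used here. Whether replicates are separate mice is not stated, so each p-value reflects spread between libraries that may be technical.

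Total counts were 33015634 and 34126329 in DSS replicates 1 and 2, and 32041207 and 30985905 in water replicates 1 and 2. The labelled cell type was weakly represented: 10 eosinophil markers summed to 106 and 397 CPM (counts scaled to a common library size) in the DSS libraries and to 8.63 and 83.0 CPM in the water libraries. Il5ra had 0 reads in water replicate 1, Epx had 0 reads in DSS replicate 1 and in water replicate 1, and Ear1 and Ear6 had reads in DSS replicate 2 only. Other markers of the list were present. Ccr3 had 20.2 and 66.9 CPM in DSS and 0.119 and 12.1 CPM in water. Siglecf had 11.1 and 36.1 CPM in DSS and 0.830 and 12.2 CPM in water. Alox15 alone had 225 CPM in DSS replicate 2. Over the same libraries 9 epithelial markers summed to 2706 and 6682 CPM (DSS) and 6623 and 5077 CPM (water). Immunoglobulin genes took 29.0% of reads in DSS replicate 1 and between 6.18% and 7.61% in the other libraries. Ptprc, the pan-leukocyte gene of CD45, had 469 and 319 CPM in DSS and 71.0 and 217 CPM in water, lowest in water replicate 1. Not all leukocyte genes were lowest there: 8 B and plasma cell markers summed to 6661 CPM in water replicate 1 and 5784 CPM in water replicate 2. In bulk samples fewer cells of a type and less RNA per cell cannot be told apart.

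Toll-like receptors are membrane proteins of the innate immune system that bind conserved microbial molecules. TLR1, TLR2, TLR4 and TLR5 sit at the cell surface and bind components of the microbial envelope and flagellum, whereas TLR3, TLR7, TLR9 and, in mice, TLR13 bind nucleic acids inside endosomes. Ligand binding recruits the adaptor MyD88, or TRIF in the case of TLR3 and of internalised TLR4, and leads to the activation of NF-kB and interferon regulatory factors. In the colon these receptors face a dense microbiota and are expressed by leukocytes, epithelium and stroma.

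All 10 genes passed the filter on low counts and were tested. In edgeR's quasi-likelihood test none was called at an adjusted p under 0.05, where 0.016% of the 18788 genes tested were called. Unadjusted edgeR p-values were under 0.05 for 3 genes, Cd14, Tlr2 and Tlr13, which were higher in DSS, where 5.06% of all genes met this, and for 0 lower in DSS, where 3.39% did. DESeq2 called 1 gene, Cd14, higher in DSS, where it called 1.64% of genes, and 0 lower, where it called 0.89%; limma-voom called 0. Every DSS value exceeded every water value for 3 of the 10 genes, again Cd14, Tlr2 and Tlr13, against 20.8% of all genes, and every DSS value was the smaller for 2, Tlr3 and Ly96, against 18.7%. The groups overlapped for the other 5. For any single value, 2 libraries against 2 give an exact two-sided permutation p of at least 0.333. In simulated data sets of the same genes 30.1% of DESeq2 calls and 8.63% of edgeR calls were false. These shares depend on the changes put into the simulation and do not estimate the share among the calls made here.

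**Figure D1:**
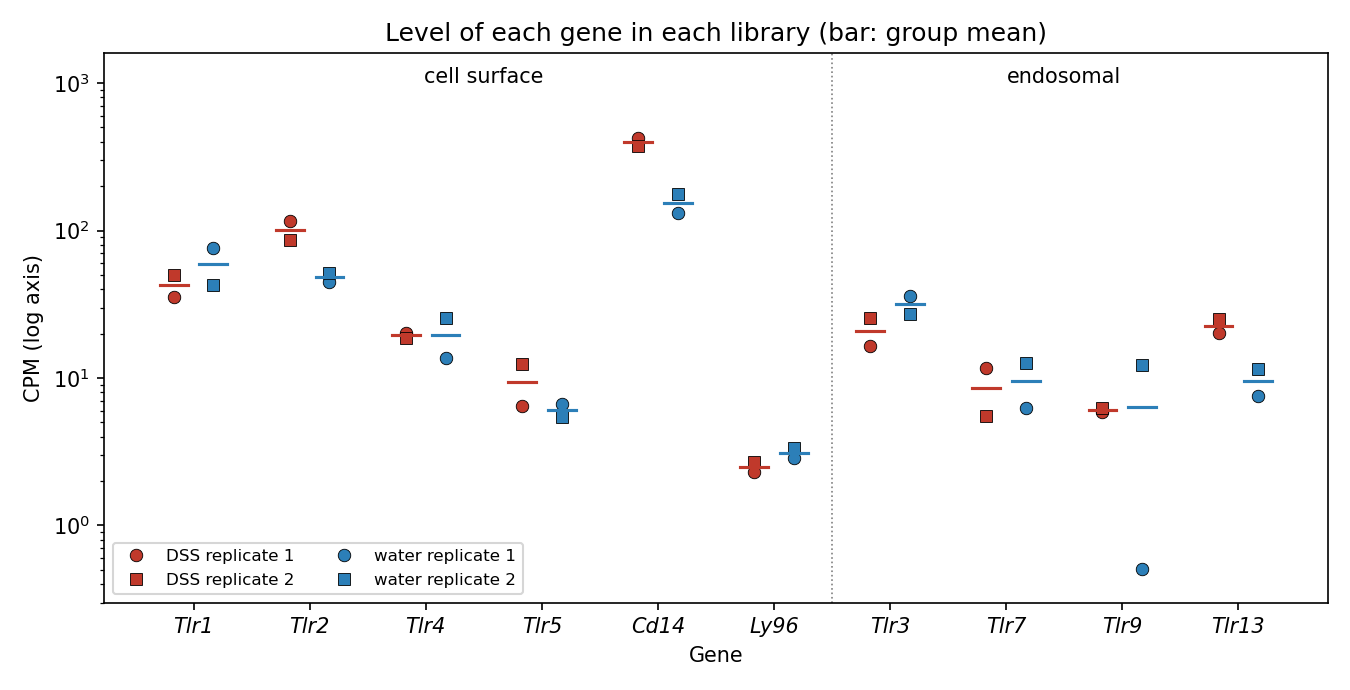
CPM (log axis) of the 10 genes in each library, with the group mean as a bar, DSS in red left of water in blue. Cd14 sits at 375 to 426 CPM in DSS and 132 to 178 CPM in water, and Tlr9 spans 0.504 to 12.2 CPM within the water group.

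The lipopolysaccharide receptor is built from TLR4, which signals, MD-2, encoded by Ly96, which holds the lipid in a complex with TLR4, and CD14, an anchored or soluble protein that delivers the lipid to them. Cd14 (chr18:36725067-36726798, minus strand, GRCm38) had 426 and 375 CPM in DSS replicates 1 and 2, against 132 and 178 CPM in water replicates 1 and 2. The DSS libraries were both above the water libraries. edgeR put the log2 fold change at 1.37 (SE 0.35, 95% interval 0.51 to 2.23), with an adjusted p of 0.471 in edgeR and 0.0107 in DESeq2. Leaving out water replicate 1 or DSS replicate 1 ended the DESeq2 call, and leaving out water replicate 2 or DSS replicate 2 did not.

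Tlr4 (chr4:66827584-66930284, plus strand) had 20.3 and 18.7 CPM in DSS, against 13.6 and 25.6 CPM in water. The DSS values lay between the water values, and the means, 19.5 ± 1.13 CPM in DSS and 19.6 ± 8.49 CPM in water (SD, n = 2 each), were close. The log2 fold change of -0.0042 had a 95% interval of -0.91 to 0.90 (adjusted p = 0.999 with edgeR). A difference of either sign within that interval remained possible. The sign of the estimate depended on the water pair: leaving out water replicate 2 gave 0.53, and leaving out water replicate 1 gave -0.43. Ly96 (chr1:16688051-16709611, plus strand) had 62 and 94 reads in DSS and 97 and 115 reads in water, or 2.31 and 2.68 CPM (DSS) and 2.88 and 3.36 CPM (water). Both DSS libraries lay slightly below both water libraries, with a log2 fold change of -0.32 (SE 0.51, 95% interval -1.57 to 0.93, adjusted p = 0.916 with edgeR).

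The proportions within this complex were compared as ratios in each library. Per kilobase of merged exons, Cd14 was 67.3 and 64.3 times the level of Tlr4 in DSS libraries, against 31.2 and 22.3 times in water libraries. The ratio was higher in both DSS libraries than in both water libraries, and its test cannot go below p = 0.333 (exact permutation, two-sided). Ly96 per kilobase was 0.618 and 0.777 times Tlr4 in DSS and 1.15 and 0.714 times Tlr4 in water, which overlapped.

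TLR2 binds bacterial lipopeptides as a heterodimer, with TLR1 for triacylated and with TLR6 for diacylated forms. Tlr2 (chr3:83836272-83841767, minus strand) had 116 and 86.1 CPM in DSS, against 44.8 and 51.7 CPM in water. The groups did not overlap, and the DSS level was 2.10-fold that in water (log2 fold change 1.07, SE 0.29, 95% interval 0.37 to 1.77). Its adjusted p was 0.471 with edgeR and 0.116 with DESeq2. Leaving out each library in turn kept the direction, with values between 0.82 and 1.27 on the log2 scale.

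The Tlr2 promoter is shown as that of a gene higher in both DSS libraries, with its matches to the motif of NF-kB, the main factor downstream of these receptors. RefSeq windows from 250 bases before to 50 after the start were matched for 6 of the 10 genes. The Tlr2 window lies at chr3:83841559-83841858 (GRCm38.p6, minus strand), and capitals mark matches on either strand to GGGNNNNNCC, a loose form of the NF-kB motif, where overlapping matches form 2 blocks. That motif was found in 50.8% of all 32851 promoter windows, so its presence is a description and does not mark a site. It was also found in the windows of Tlr3, which was lower in both DSS libraries, and Tlr5, and not in those of Tlr1, Tlr9 and Tlr13, of which Tlr13 was higher in both DSS libraries. The window held no match to GAGGAAGT (PU.1-type, in 3.20% of windows) or to TGANTCA (AP-1-type, in 7.81%). In GENCODE the Tlr2 gene begins at chr3:83841767, inside this window, so the RefSeq and GENCODE starts differ. By the GENCODE start the second block in capitals lies within the gene.
Tlr2: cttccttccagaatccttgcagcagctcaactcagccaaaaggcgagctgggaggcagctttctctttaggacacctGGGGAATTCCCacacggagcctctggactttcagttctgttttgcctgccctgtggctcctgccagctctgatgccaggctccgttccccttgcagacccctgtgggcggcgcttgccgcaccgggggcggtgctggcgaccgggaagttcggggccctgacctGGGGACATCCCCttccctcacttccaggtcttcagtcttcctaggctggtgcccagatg

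Tlr1 (chr5:64924679-64933563, minus strand) had 35.3 and 49.6 CPM in DSS, against 76.1 and 42.9 CPM in water. The groups overlapped, since DSS replicate 2 exceeded water replicate 2. Its log2 fold change of -0.49 (SE 0.36, 95% interval -1.37 to 0.39, adjusted p = 0.785 with edgeR) shrank to -0.053 without water replicate 1. Per kilobase, Tlr1 was 0.273 and 0.519 times the level of Tlr2 in DSS libraries, against 1.53 and 0.748 times in water libraries. The DSS ratios were both below the water ratios.

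The other partner, Tlr6, is a neighbour of Tlr1 on chromosome 5 and was not among the 10 genes. Tlr6 had 11.9 and 8.54 CPM in DSS, against 1.60 and 3.42 CPM in water. The groups did not overlap, and the log2 difference was 2.03 (SE 0.52), with an adjusted p of 0.471 in edgeR and 0.0290 in DESeq2. The DESeq2 call was kept only without water replicate 2 among the fits that left out a library. Per kilobase, Tlr1 was 3.29 and 6.47 times the level of Tlr6 in DSS and 52.9 and 14.0 times in water, so Tlr1 was the more abundant partner in all 4 libraries, by less in both DSS libraries.

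Part of the Tlr1 and Tlr6 sequence is identical. The transcripts shared 454 words of 50 bases, 13.6% of the words of Tlr1 and 12.3% of those of Tlr6, and no other pair of the 12 mouse Toll-like receptor genes shared any. The longest identical coding stretch was 229 bases. The 120 bases around its end are shown, on chr5:64925477-64925596 for Tlr1 and chr5:64953768-64953887 for Tlr6 (GRCm38, minus strand), with the 2 differing bases in capitals.
Tlr1: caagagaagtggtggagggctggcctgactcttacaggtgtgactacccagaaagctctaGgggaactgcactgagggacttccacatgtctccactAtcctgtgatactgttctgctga
Tlr6: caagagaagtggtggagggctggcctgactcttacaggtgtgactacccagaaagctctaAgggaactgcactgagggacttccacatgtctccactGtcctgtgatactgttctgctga
How the deposited counting treated reads from this stretch is not stated, so the levels of Tlr1 and Tlr6 carry that uncertainty.

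Tlr5 (chr1:182954788-182976044, plus strand) encodes the receptor for bacterial flagellin. It had 6.48 and 12.4 CPM in DSS, against 6.67 and 5.43 CPM in water. DSS replicate 2 alone stood high, and DSS replicate 1 lay within the water range. The estimate of 0.64 on the log2 scale (SE 0.45, 95% interval -0.46 to 1.73, adjusted p = 0.776 with edgeR) became 0.098 without DSS replicate 2 and 1.02 without DSS replicate 1.

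Among the endosomal receptors, TLR13 binds bacterial ribosomal RNA in mice and has no human counterpart. Tlr13 (chrX:106143204-106160493, plus strand) had 20.1 and 25.0 CPM in DSS, against 7.59 and 11.4 CPM in water. Again the groups did not overlap. The DSS level was 2.37-fold that in water (log2 fold change 1.25, SE 0.34, 95% interval 0.42 to 2.07), with an adjusted p of 0.471 in edgeR and 0.130 in DESeq2. Without a filter on low counts edgeR called it (adjusted p = 0.0429), a setting in which 1051 genes were called.

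TLR3 binds viral and other long duplex RNA and signals through TRIF. Tlr3 (chr8:45395665-45411080, minus strand) had 16.4 and 25.5 CPM in DSS, against 36.2 and 27.2 CPM in water. Each DSS value was below each water value, with DSS replicate 2 close to water replicate 2. Tlr3 thus had a log2 fold change of -0.60 (SE 0.33, 95% interval -1.40 to 0.21, adjusted p = 0.708 with edgeR). The antisense gene Gm45542 overlaps 381 exonic bases of Tlr3, and without stated strand their reads cannot be told apart.

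TLR7 binds single-stranded RNA and TLR9 binds unmethylated CpG DNA. Tlr7 (chrX:167304929-167330558, minus strand) had 11.7 and 5.52 CPM in DSS, against 6.25 and 12.7 CPM in water. The groups overlapped, and edgeR put the difference at -0.14 on the log2 scale (SE 0.54, 95% interval -1.45 to 1.16, adjusted p = 0.973), which was 0.46 without water replicate 2 and 0.30 without DSS replicate 2. Tlr9 (chr9:106222598-106226883, plus strand) had 158 and 220 reads in DSS, against 17 and 417 reads in water, or 5.88 and 6.26 CPM (DSS) and 0.504 and 12.2 CPM (water). The DSS libraries were alike and lay between the water libraries, which differed by 4.59 on the log2 scale. The 17 reads of water replicate 1 have an exact Poisson 95% interval of 9.90 to 27.2 reads, which covers counting error only. For Tlr9 edgeR estimated -0.063 on the log2 scale (SE 1.17, 95% interval -2.92 to 2.79, adjusted p = 0.996). The estimate was 3.59 when water replicate 2 was left out and -1.04 when water replicate 1 was left out.

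**Figure D2:**
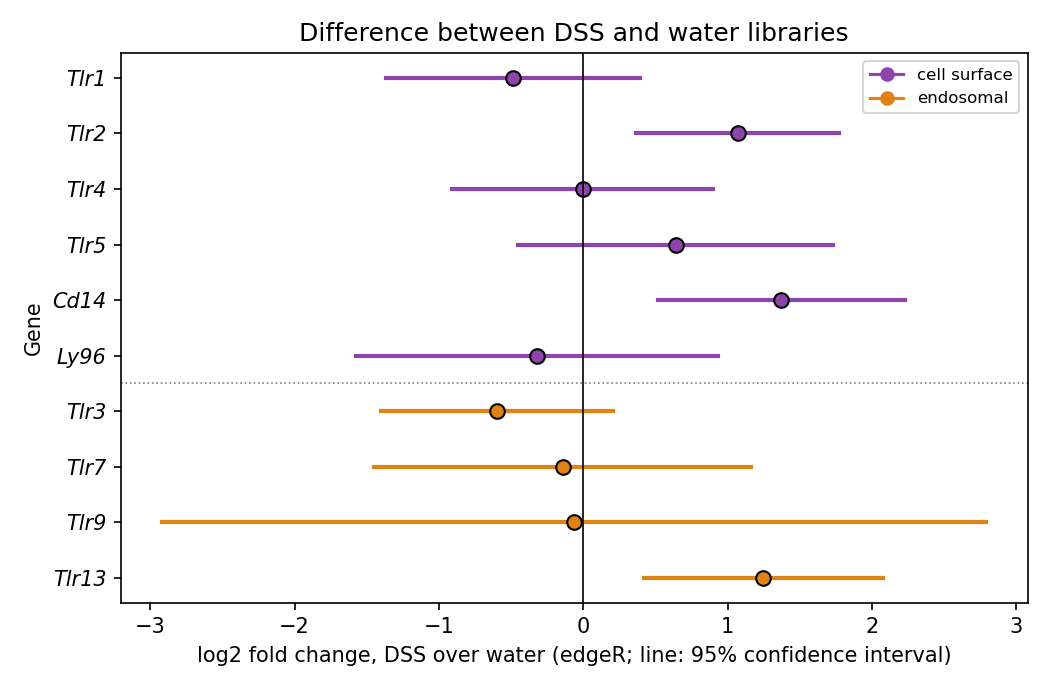
edgeR log2 fold change of DSS over water for each gene (point) with its 95% confidence interval (line), cell-surface genes in purple above endosomal genes in orange. The intervals of Cd14, Tlr2 and Tlr13 lie above 0, although their p-values adjusted over all genes are each 0.471, and that of Tlr9 runs from -2.92 to 2.79.

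Set side by side, the 6 cell-surface genes had a median log2 fold change of 0.32, with 3 above 0 and 3 below, and the 4 endosomal genes had a median of -0.10, with 1 above 0 and 3 below. The median over all genes tested was -0.0095, and 49.2% of genes lay above 0. The difference between the cell-surface and endosomal genes was not tested, and each side held genes that lay above and genes that lay below. Leaving out water replicate 2 moved the endosomal median to 1.02 and the cell-surface median to 0.52; leaving out water replicate 1 moved the endosomal median to -0.51, and leaving out DSS replicate 2 moved it to 0.092 and the cell-surface median to 0.075.

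Per kilobase, the summed level of the 4 surface receptors, leaving out Cd14 and Ly96, was 54.1 and 49.3 in DSS and 41.4 and 35.7 CPM per kilobase in water. The 4 endosomal receptors summed to 12.4 and 13.9 CPM per kilobase in DSS and 10.4 and 14.5 in water. The surface sum was thus higher in both DSS libraries, whereas the endosomal sums overlapped. The surface sum was 4.37 and 3.56 times the endosomal sum in DSS, against 3.98 and 2.46 times in water, and these ratios overlapped. Tlr6, Tlr8, Tlr11 and Tlr12 were in neither sum. Of these, Tlr12 had 2.94 and 1.54 CPM per kilobase in DSS and 2.04 and 7.96 in water.

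The make-up of each sum was also compared. Tlr2 took 71.3% and 57.9% of the surface sum in DSS, against 35.8% and 48.0% in water, and Tlr1 took 19.5% and 30.0% in DSS, against 54.9% and 35.9% in water. Tlr13 took 37.8% and 41.9% of the endosomal sum in DSS, against 16.9% and 18.3% in water, and Tlr3 took 25.5% and 35.4% in DSS, against 66.9% and 36.0% in water. In each of these 4 shares the groups did not overlap, although DSS replicate 2 and water replicate 2 were close for Tlr3. The shares of Tlr4, Tlr5, Tlr7 and Tlr9 overlapped, and the shares within a sum are tied to each other.

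Averaged over all 4 libraries and per kilobase, Cd14 stood highest at 160 CPM per kilobase, followed by Tlr2 at 24.8, Tlr1 at 15.2 and Tlr3 at 5.06. Tlr13 followed at 3.73, then Tlr4 at 3.52, Ly96 at 2.75, Tlr7 at 2.22, Tlr9 at 1.78 and Tlr5 at 1.61 CPM per kilobase. The lowest Cd14 library, at 76.1, was above the highest Tlr2 library, at 38.6, and the lowest Tlr1 library, at 10.5, was above the highest Tlr3 library, at 6.96. The libraries of Tlr2 and Tlr1 overlapped, as did those of each neighbouring pair from Tlr3 down to Tlr5. The order of the means differed between groups. The mean of Tlr2 was above that of Tlr1 in DSS (33.6 and 12.7 CPM per kilobase). In water it was below that of Tlr1, which averaged 17.8. The water order rested on water replicate 1, with Tlr1 at 22.7 and Tlr2 at 14.8 CPM per kilobase. In water replicate 2, Tlr2 at 17.1 was above Tlr1 at 12.8, as in both DSS libraries. Tlr13 averaged 5.24 CPM per kilobase in DSS, above Tlr3 at 4.03, and 2.21 in water, below Tlr3 at 6.09 and Tlr4 at 3.52.

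The other Toll-like receptors of the mouse complete the family. Besides Tlr6, Tlr8 had 6.36 and 5.63 CPM in DSS and 1.60 and 5.87 CPM in water. Tlr11, whose product recognises profilin of parasites in mice, had 1.15 and 1.39 CPM in DSS and 0.771 and 2.31 CPM in water. Its partner Tlr12 had 9.34 and 4.89 CPM in DSS and 6.49 and 25.3 CPM in water. The groups overlapped for Tlr8, Tlr11 and Tlr12, and edgeR called none of the 4.

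Pan-leukocyte markers, like Cd14, Tlr2 and Tlr13, were higher in both DSS libraries than in both water libraries. Not all leukocyte markers were: of 12 monocyte and macrophage markers 8 had a log2 fold change below 0, with a median of -0.50. The 4 pan-leukocyte markers Ptprc, Cd53, Laptm5 and Coro1a summed to 1332 and 1099 CPM in DSS, against 276 and 786 CPM in water. Ptprc itself differed by 1.45 on the log2 scale (SE 0.58, adjusted p = 0.580 with edgeR). Relative to Ptprc, Cd14 had 90.9 and 118 reads per 100 Ptprc reads in DSS, against 186 and 82.2 in water, which overlapped. Tlr2 had 24.8 and 27.0 reads per 100 Ptprc reads in DSS and 63.1 and 23.9 in water, and Tlr13 had 4.29 and 7.85 in DSS and 10.7 and 5.29 in water, which also overlapped. On this scale all 10 genes lay below 0 in the log2 ratio of group means, from -0.36 for Cd14 to -2.47 for Tlr3, and water replicate 1, with 2394 Ptprc reads, gave the highest ratio for every gene except Tlr9. The sign turned without water replicate 1 for Cd14 (0.34), Tlr2 (0.12), Tlr13 (0.20) and Tlr5 (0.067), and without water replicate 2 for Tlr9 (1.18). Tlr6, in contrast, had 2.55 and 2.68 reads per 100 Ptprc reads in DSS and 2.26 and 1.58 in water, which did not overlap. The part of leukocyte content in the CPM levels was not tested.

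Markers of single cell types moved as well, and the library pattern of each gene was set beside 10 marker lists by the Euclidean distance of log2 CPM, centred on its mean over the 4 libraries. This comparison was chosen after the data were seen and is a description over 4 libraries. Tlr1 and Tlr3 lay nearest the epithelial list (distances 0.491 and 0.379). The next list for both was the monocyte and macrophage list (1.49 and 1.22). Cd14 and Tlr13 lay nearest the pan-leukocyte list (0.701 and 0.748), with the dendritic cell list next (0.726 and 0.930), and Tlr2 nearest the B and plasma cell list (0.563), ahead of the dendritic cell list (0.696).

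Tlr4, Ly96 and Tlr7 lay nearest the monocyte and macrophage list (0.737, 0.819 and 1.00). The 12 markers of that list summed to 1013 and 1103 CPM in DSS and 905 and 2229 CPM in water, and none was at 0 in any library. The distances to the next list were close: Tlr4 lay 0.762 from the stromal list, Ly96 0.897 from the epithelial list and Tlr7 1.08 from the B and plasma cell list. Tlr5 lay nearest the stromal list (0.897) and next to the epithelial list (1.11), and Tlr9 lay nearest the pan-leukocyte list (1.68) and next to the mast cell list (1.97). Tlr4, Ly96 and Tlr5 lay nearer to a flat pattern (0.637, 0.330 and 0.846) than to any list, and Tlr7 lay about as near to it (1.00). All 10 genes were farthest from the neutrophil list, whose 11 markers summed to 1156 and 1651 CPM in DSS and 41.0 and 154 CPM in water, a wider span than that of any of the 10 genes. Of that list Cxcr2, Mmp8 and Stfa2l1 had 0 reads in water replicate 1, Ngp in water replicate 2 and Camp in both. The part of any of these cell types in the levels was not tested.

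**Figure D3:**
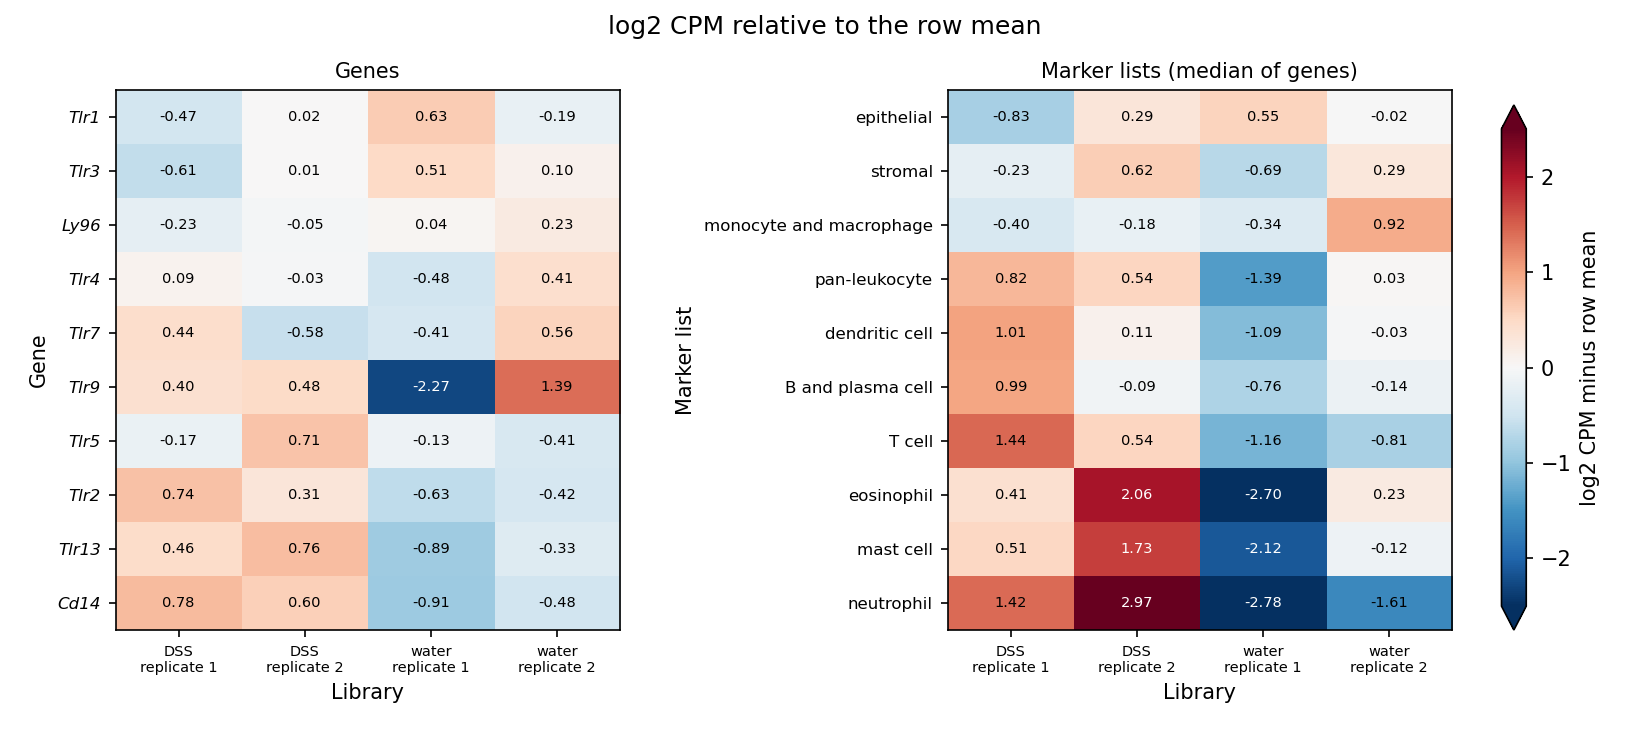
log2 CPM of each gene (left) and the median of each marker list (right) in the DSS and water libraries, relative to the row's mean over the 4 libraries. Tlr1 and Tlr3 are highest in water replicate 1, as is the epithelial list. Cd14, Tlr2 and Tlr13 are lowest there, as is every list but the epithelial and the monocyte and macrophage lists.

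Of the tested genes with at least 10 CPM on average, 10424 in number, those with the library pattern most like that of Cd14 by the same kind of distance were Per1 (0.052), Sele (0.116) and Sorl1 (0.163). For Tlr2 they were Slc10a6 (0.028), Gm37352 (0.084) and Mxd1 (0.096), and for Tlr4 they were 2700081O15Rik (0.064), Dact3 (0.076) and Lum (0.079). Over 4 libraries close neighbours are easily found among so many genes. Within the 10 genes, Tlr1 and Tlr3 were each other's nearest (0.349), as were Cd14 and Tlr13 (0.388), in each case a cell-surface and an endosomal gene. The same held for Ly96, nearest Tlr3 (0.616), Tlr7, nearest Tlr4 (0.714), and Tlr5, nearest Tlr13 (1.03). It did not hold for Tlr2, nearest Cd14 (0.406), Tlr4, nearest Ly96 (0.661), and Tlr9, nearest Tlr13 (2.72).

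The genes downstream of the receptors were counted from lists in which edgeR called no member; the counts stand against 49.2% of all genes above 0, 20.8% with both DSS libraries above both water libraries and 18.7% below, and 1.64% called higher by DESeq2. Of 18 adaptors and proximal kinases 14 lay above 0 (median log2 fold change 0.41), and the groups did not overlap for 11, each higher in DSS. The median was 0.23 without water replicate 1. DESeq2 and edgeR called 0 of them, and 1, Irak2, had an unadjusted edgeR p under 0.05. Myd88, the adaptor of all Toll-like receptors but TLR3, averaged 55.8 ± 1.70 CPM in DSS and 40.6 ± 1.88 CPM in water (SD, n = 2 each). Ticam1, which encodes TRIF, had 42.3 and 30.6 CPM in DSS and 27.5 and 20.0 CPM in water. The kinase gene Irak2 differed by 0.89 (log2 fold change, SE 0.31) and the ubiquitin ligase gene Traf3 by 0.68 (SE 0.38). Per Ptprc read, the log2 ratios of group means were -1.34 for Myd88, -1.37 for Ticam1, -0.94 for Irak2 and -0.94 for Traf3.

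Of 12 inhibitors 10 lay above 0, with a median of 0.49, and 8 did not overlap, each higher in DSS. The median was 0.78 without water replicate 2. DESeq2 called 1 of them, Tnfaip3, the gene of the deubiquitinase A20, which had 1072 and 1161 CPM in DSS against 137 and 457 CPM in water (log2 fold change 1.91, DESeq2 adjusted p = 0.0131, edgeR adjusted p = 0.525). Leaving out water replicate 1, DSS replicate 1 or DSS replicate 2 ended that call. Of 9 transcription factor genes 6 lay above 0 and did not overlap, with a median of 0.50. They included the NF-kB subunit genes Rel and Nfkb2 (log2 fold changes 1.32 and 0.99) and Irf5 (0.80), and DESeq2 called 0. Irf7 had 81.8 and 48.2 CPM in DSS and 167 and 80.0 CPM in water. The log2 ratios of group means per Ptprc read were 0.55 for Tnfaip3, -0.12 for Rel, -0.74 for Nfkb2, -0.82 for Irf5 and -3.07 for Irf7.

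Of 14 accessory and trafficking genes 11 lay above 0, with a median of 0.072, and 2 did not overlap, a share below that of all genes. The sign of the median depended on the libraries kept: dropping water replicate 1 gave -0.21, dropping water replicate 2 gave 0.55, dropping DSS replicate 1 gave -0.041 and dropping DSS replicate 2 gave 0.035. The non-overlapping genes were Cd36, a scavenger receptor and co-receptor of TLR2 (log2 fold change 1.16), and Slc15a3, an endolysosomal transporter (1.22). Unc93b1, the chaperone that carries the endosomal receptors out of the endoplasmic reticulum, had 223 and 169 CPM in DSS and 160 and 277 CPM in water. Lbp, which encodes the serum protein that loads lipopolysaccharide onto CD14, had 40.4 and 23.1 CPM in DSS and 33.4 and 26.9 CPM in water. Both genes overlapped between groups.

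Target genes were counted in lists named for the adaptor MyD88 or TRIF. The names are labels that do not exclude the other adaptor, and dependence on either was not tested. All 10 MyD88-dependent target genes lay above 0 and did not overlap; their median log2 fold change was 1.95, with 2.58 when water replicate 2 was left out and 1.38 when water replicate 1 was. DESeq2 called 7 of them higher: the cytokine genes Il6 and Il1b (log2 fold changes 2.11 and 2.07), the chemokine genes Cxcl1 and Cxcl2 (1.83 and 2.32), Ptgs2, which encodes an inducible cyclooxygenase (2.09), and the NF-kB regulators Nfkbia and Nfkbiz (1.52 and 1.33). The median was 1.70 without DSS replicate 1 and 1.79 without DSS replicate 2. Fewer were called without water replicate 1, DSS replicate 1 or DSS replicate 2, and more without water replicate 2. The number called over all genes changed between these fits as well. Il6 had 128 and 108 CPM in DSS, against 22.9 and 31.7 CPM in water. Per Ptprc read, the log2 ratio of group means was smaller than the log2 fold change for each of the 7 genes called. It was 0.38 for Il6, 0.53 for Il1b, 0.30 for Cxcl1, 1.24 for Cxcl2, 0.73 for Ptgs2, 0.066 for Nfkbia and -0.26 for Nfkbiz. Il6 had 27.2 and 33.9 reads per 100 Ptprc reads in DSS and 32.2 and 14.7 in water, which overlapped. The part of leukocyte content in these target levels was not tested. Other cytokine receptors use the same adaptor or induce the same genes, and the neutrophil markers given above were likewise higher in DSS; their part in these values was not tested. Of 9 TRIF-dependent target genes 4 lay above 0, with a median of -0.17; the groups did not overlap for 2 higher and 4 lower in DSS, and DESeq2 called 1, the chemokine gene Ccl5 (log2 fold change 1.89). Without water replicate 1 or DSS replicate 1 that call was lost and the median was -0.40 and -0.51; without DSS replicate 2 it was -0.36. The interferon-induced genes Ifit1, Ifit2, Ifit3 and Oasl1, named after their values were seen, lay below both water libraries in both DSS libraries, with log2 fold changes of -1.12, -0.72, -0.83 and -0.82, none called. Rsad2, also interferon-induced, lay above (log2 fold change 0.71), with 35.9 and 21.1 CPM in DSS and 14.3 and 20.6 CPM in water, and Cxcl10 (0.26) and Isg15 (-0.17) overlapped. The difference between the target lists was not tested.

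**Figure D4:**
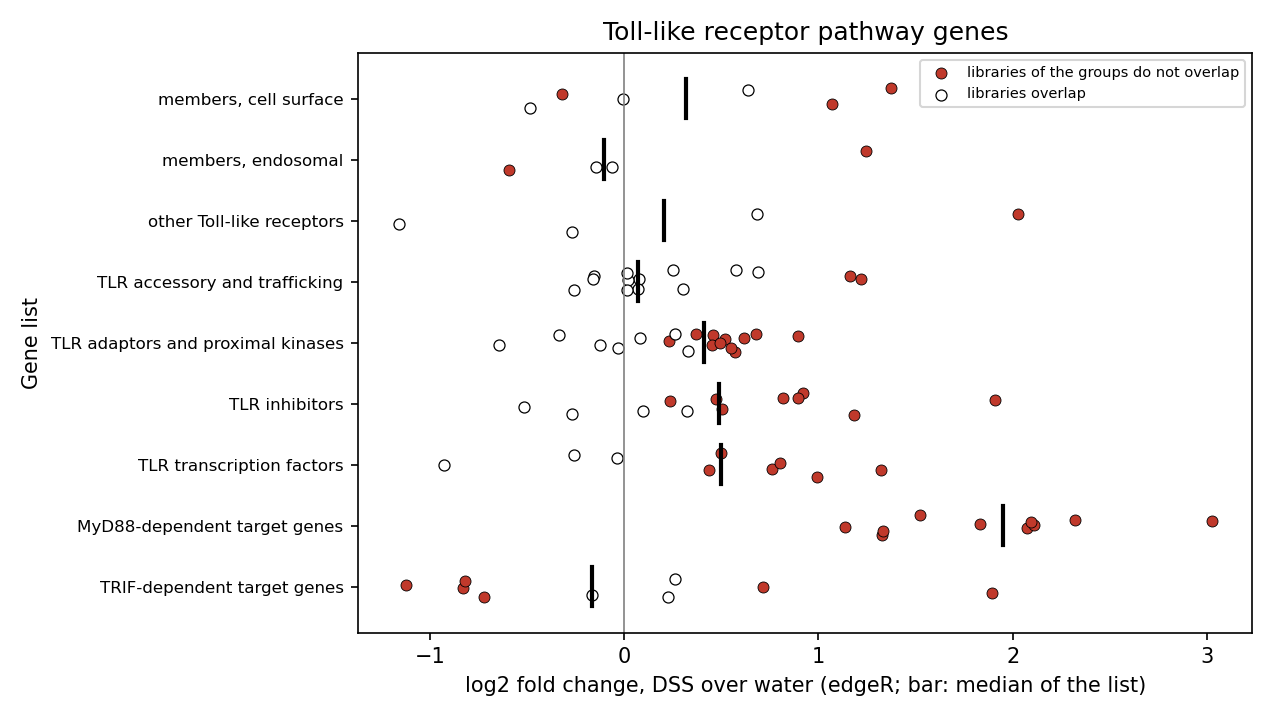
edgeR log2 fold change of DSS over water for each gene of the pathway lists, with the list's median as a bar; red points are genes whose DSS and water libraries do not overlap. Genes of the list named MyD88-dependent lie between 1.14 and 3.03, while cell-surface and endosomal receptor genes lie on both sides of 0.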

How the data were processed

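The authors deposited raw read counts for 53819 gene symbols, 1 column per library, with no normalization. The submitters' processing notes list the build mm10 (GRCm38) and the tools STAR, HISAT2, HTSeq, featureCounts and DESeq2, with no versions or roles; no annotation is named. Libraries were made from fragmented poly-A RNA with random hexamer priming, per the labels' protocols. Among counts of 1 to 10, between 70.5% and 73.2% were even in each library, a pattern that counting both mates of a pair would give; this was not tested, and it would make counting intervals too narrow.

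A filter (filterByExpr, edgeR 4.0.16, R 4.3.3, count minimum 10, total minimum 15) kept 18788 genes, which held 99.4% of counts. TMM scaling and the robust quasi-likelihood test of edgeR, with the group as sole term, were applied, and p-values were adjusted by Benjamini-Hochberg over all genes. CPM use TMM-adjusted totals; SE is the log2 fold change divided by the root of F. Alternatives used DESeq2 1.42.0 and limma 3.58.1. Lengths and coordinates came from GENCODE vM21 (GRCm38), promoters from RefSeq (GRCm38.p6). Library patterns used log2(CPM + 0.5) for marker lists and a prior count of 2 for neighbouring genes. In 5 simulated data sets of the same 18788 genes edgeR called 3.60% of genes changed 2-fold and 47.2% of those changed 4-fold, and DESeq2 called 8.80% and 71.6%, with 8.63% and 30.1% of calls false.

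Named were the 10 members, the other Toll-like receptors, and of each pathway list the called genes or else up to 3 non-overlapping genes with the largest change; others were named for their role, after their values were seen. The members and lists were chosen with earlier results of these data known. Replicates of a group were not duplicates of each other (chi-square per degree of freedom 143 for water and 427 for DSS).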

Additional observations from a re-analysis of the deposited data

How the results depend on the processing

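Of the 10 genes, 7 kept their direction in all 14 alternatives with a test; Tlr4, Tlr7 and Tlr9 did not. Tlr4 (main log2 fold change -0.0042) was 0.061 with limma-voom, 0.064 with a replicate block, 0.065 with a crossed block, 0.052 without DSS replicate 2 and -0.43 to 0.53 leaving out each library. Tlr7 was 0.30 without DSS replicate 2 and -0.80 to 0.46 leaving out each library. Tlr9 was 1.27 with limma-voom, 1.15 with a replicate block, 1.13 with a crossed block and -1.04 to 3.59 leaving out each library. The upper end of each range is the fit without water replicate 2. The cause was not tested. Of the 10 genes edgeR called 1, Tlr13, without a count filter, and DESeq2 called 1, Cd14; the other alternatives called 0. Over all genes edgeR called 3, without a count filter 1051, DESeq2 497, limma-voom 0, and edgeR between 3 and 196 leaving out each library (the lone library of a group is then assumed to vary like the other group). The endosomal median was 0.53 with limma-voom, 0.50 with a replicate block, 0.49 with a crossed block, and -0.51 to 1.02 leaving out each library; the cell-surface median was 0.075 to 0.52 leaving out each library. Per Ptprc read the endosomal and cell-surface medians were -1.39 and -1.39. Leaving out water replicate 1, water replicate 2, DSS replicate 1 or DSS replicate 2 gave -1.30, -1.44, -1.34 and -1.45 for the endosomal median and -0.36, -1.87, -1.04 and -1.97 for the cell-surface median. Per summed pan-leukocyte read they were -1.13 and -1.14, and leaving out the same libraries in that order gave -1.10, -1.13, -1.22 and -1.06, and -0.19, -1.60, -0.90 and -1.55. The pan-leukocyte scaling and leaving out libraries under either scaling were added after the data were seen.

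The replicate block called 0 genes. The deviations of same-numbered libraries from their group means correlated at -0.10 over genes, and a block with crossed numbers, added after the data were seen, called 44 genes and 0 of the 10. Depth limited Ly96 (62 to 115 reads) and Tlr9 in water replicate 1 (17 reads).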
